A study of Mus musculus with 36 samples.

Results

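Rnase4, which encodes ribonuclease 4, and Ang, which encodes angiogenin, were followed in the livers of 4 mouse strains before and after acetaminophen. They are 2 of the 18193 genes that had a probe set of their own on the array. They were picked out because Rnase4 was lower in the strain labelled C57 at 6 h than at 0 h, and because the genes share promoters. The probe sets were found by gene symbol: of 45101 probe sets, 1 carried Rnase4 alone, 3 carried Ang alone and 0 carried either symbol beside another gene. Values from C57 at 6 h set against C57 at 0 h, or in any contrast with that change in it, are therefore given as a description without a test.

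Biotin-labelled total RNA from 36 livers was hybridised to Affymetrix arrays, 1 array for each mouse. The mice, of strains named SJL, SMJ, DBA and C57 in the labels, had no food overnight and then received 300 mg/kg acetaminophen by a bolus into the peritoneum. Acetaminophen is a common pain medicine whose overdose damages hepatocytes. Separate sets of 3 mice per strain were sampled at 0 h, which is before dosing, and at 3 h and 6 h. The series calls SJL resistant to the injury and SMJ, DBA and C57 sensitive. The labels give no vehicle group at 3 h or 6 h, so the drug, the time of day and the length of the fast cannot be told apart. Values are MAS5 signals, a linear brightness per probe set, scaled by the authors to a common mean. Because a signal depends on its probes, a probe set was compared between strains and times but never with another probe set. In whole liver, fewer cells of a type and less RNA per cell cannot be told apart.

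Both proteins are small secreted enzymes of the RNase A superfamily, which cut single-stranded RNA and are held inactive inside cells by the ribonuclease inhibitor Rnh1. Angiogenin is known for promoting blood vessel growth and for cutting transfer RNAs into fragments in stressed cells, and ribonuclease 4 for its preference for uridine. Liver is a major source of both. In the mouse the genes lie in 1 locus, share noncoding first exons that are spliced to separate coding exons, and are driven by a broadly active promoter and by another known to work in liver cells.

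Because the shared start is what joins the genes, the promoter windows are shown. RefSeq (GRCm38.p6) lists 2 starts for Rnase4 and 1 for Ang, and each window covers 250 bases before and 50 bases after the start. The window of Ang was identical to 1 of the windows of Rnase4, so 2 distinct windows remain, both on the + strand of chromosome 14, with starts 4923 bases apart. Capitals mark a GC box (CCGCCC), a motif bound by SP factors.
Shared window of Ang and Rnase4 (chr14:51090827-51091126): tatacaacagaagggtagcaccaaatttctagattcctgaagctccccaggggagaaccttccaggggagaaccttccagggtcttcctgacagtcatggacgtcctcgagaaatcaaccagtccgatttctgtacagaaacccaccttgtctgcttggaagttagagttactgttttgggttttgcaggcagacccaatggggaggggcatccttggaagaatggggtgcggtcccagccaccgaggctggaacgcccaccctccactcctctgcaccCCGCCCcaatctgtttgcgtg
Second window of Rnase4 (chr14:51095750-51096049): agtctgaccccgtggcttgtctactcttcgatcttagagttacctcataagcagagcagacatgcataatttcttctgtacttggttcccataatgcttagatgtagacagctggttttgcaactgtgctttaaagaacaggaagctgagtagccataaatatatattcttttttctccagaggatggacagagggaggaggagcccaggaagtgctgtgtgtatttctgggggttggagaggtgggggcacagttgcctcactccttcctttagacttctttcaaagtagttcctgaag

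The shared window had a GC content of 54.7% and the second Rnase4 window one of 45.3%, against a median of 52.7% over 32817 windows of the same table. Both strands were searched for 4 motifs. The shared window held 1 GC box, beginning 30 bases after the start, as did 35.6% of all windows in at least 1 place, and the second window held none. Neither window held TATAAA (13.6% of windows), the antioxidant response element TGACNNNGC (12.4%) or the AP-1 letters TGANTCA (7.81%). The absence of these letters says nothing about binding outside the windows.

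Before the dose, Rnase4 was brightest in SJL and dimmest in C57. Its signals at 0 h were 8400.1, 9964 and 8636 in SJL, 8079.8, 8181 and 8225 in DBA, 6463, 6989.5 and 7039 in SMJ, and 4559, 4932 and 5749.7 in C57. The 3 SJL mice lay above all the SMJ mice, a separation whose share over all genes was not computed. The 3 C57 mice lay below the 9 mice of the other strains, as they did for 3.78% of all genes tested. Rnase4 averaged 9000.1 ± 843 in SJL, 8162 ± 74.4 in DBA, 6830.5 ± 319 in SMJ and 5080.4 ± 609 in C57 (SD, n = 3 each).

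Across all genes tested, limma with Benjamini-Hochberg adjustment called Rnase4 higher in SJL than in SMJ (log2 difference 0.39 ± 0.13 SE, adjusted p = 0.0484), with 5.9% of the genes called higher in that comparison. This call was lost when any 1 of the 6 mice was left out (differences between 0.32 and 0.44, adjusted p between 0.0658 and 0.197), and after quantile normalization (0.17, adjusted p = 0.465). The neighbours in the order did not differ beyond their error: SJL minus DBA was 0.14 (95% interval -0.13 to 0.40, adjusted p = 0.6), and SMJ minus DBA was -0.26 (interval -0.53 to 0.01, adjusted p = 0.244).

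Ang, read from the probe set 1450717_at that represents it here, had another order at 0 h. Its signals were 3087, 3784 and 3350.3 in DBA, 2899.8, 2734 and 2329 in SMJ, 2539.5, 2748 and 2367 in SJL, and 1695, 1925 and 2257 in C57. DBA was brightest in every mouse and C57 dimmest in every mouse, while SMJ and SJL overlapped. The C57 mice were below the rest at 0 h for 3.78% of all genes tested, and the share with DBA above the rest was not computed. Ang averaged 3407 ± 352 in DBA, 2654 ± 294 in SMJ, 2552 ± 191 in SJL and 1959 ± 282 in C57 (SD, n = 3 each). None of the 3 differences among SJL, SMJ and DBA passed limma's test: SJL minus DBA was -0.41 ± 0.18 (adjusted p = 0.153), SMJ minus DBA -0.36 ± 0.18 (adjusted p = 0.236) and SJL minus SMJ -0.05 ± 0.18 (log2 ± SE, adjusted p = 0.903). The place of C57 in this order depends on the probe set, as given further on.

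**Figure D1:**
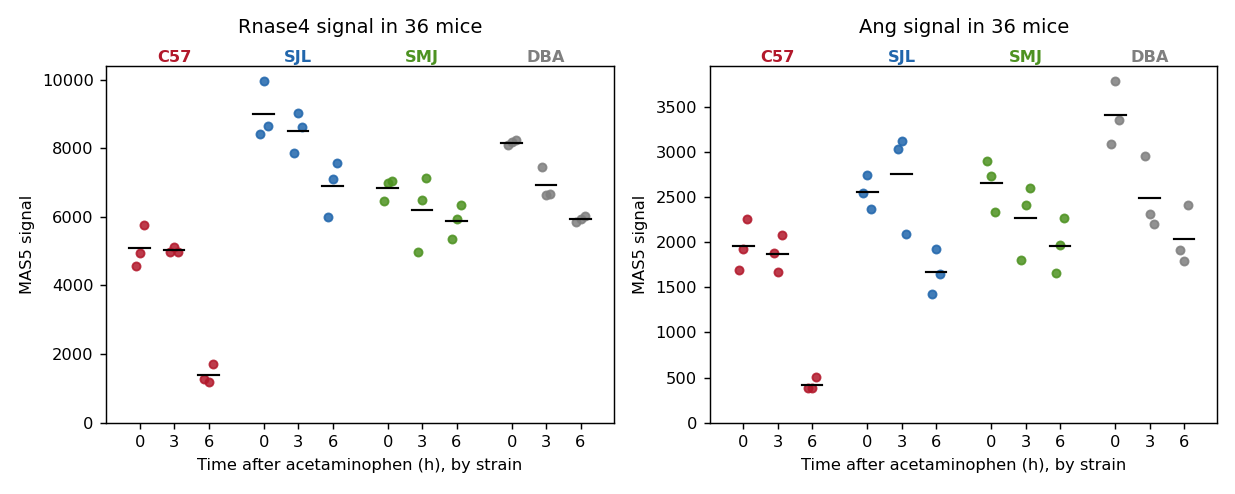
MAS5 signals (linear axis from 0) of Rnase4 and of Ang, probe set 1450717_at, in 36 mice, by strain and hours after acetaminophen; points are mice and bars are means of 3 mice. The 3 C57 mice at 6 h lie between 1174 and 1701 for Rnase4 and between 381 and 505 for Ang, below every other mouse.

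After the dose, both genes fell in the mean of the 3 strains other than C57. At 6 h the mean change of SJL, SMJ and DBA was -0.36 ± 0.08 for Rnase4 (log2 ± SE, limma adjusted p = 0.000592), or 1.28-fold lower, and -0.60 ± 0.10 for Ang (adjusted p = 5.57e-05), or 1.52-fold lower. Of all genes tested, 19.2% were called lower in this comparison. Both calls held without any 1 of the 18 mice, with changes between -0.38 and -0.32 for Rnase4 and between -0.65 and -0.56 for Ang. In each of the 4 strains all 3 mice at 6 h lay below all 3 mice at 0 h for both genes. This pattern was shared by 2.64% of all genes tested. It includes the fall in C57 by which Rnase4 was picked out, so that share is only a description. For SJL, SMJ and DBA alone the share was 5.29%. In single strains such a separation was common, at 17.7% of genes in SJL, 20.2% in SMJ and 21% in DBA.

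In SJL, the strain called resistant, Rnase4 had signals of 8400.1, 9964 and 8636 at 0 h, 7852, 9032 and 8626 at 3 h, and 6003, 7106 and 7566 at 6 h. The 3 h mice overlapped the 0 h mice, and the 6 h mice lay below both. In SJL 17.7% of genes had the 6 h mice below the 0 h mice, and the share below both was not computed. Ang had 2539.5, 2748 and 2367 at 0 h, 3034, 3122 and 2094 at 3 h, and 1429, 1926 and 1642 at 6 h. At 3 h, SJL39 and SJL40 were brighter for Ang than any mouse at 0 h and SJL42 was dimmer than any, so the groups overlapped; in SJL 13.9% of genes had all 3 h mice below the 0 h mice. At 6 h the signal was 76.6% of the 0 h mean for Rnase4 and 65.3% for Ang. Ang passed limma's test in SJL at 6 h (-0.62 ± 0.18, adjusted p = 0.0324), against 3.32% of genes called lower; Rnase4 changed by -0.39 ± 0.13 and did not pass (adjusted p = 0.0725), although it did after quantile normalization (-0.45, adjusted p = 0.0356). The Ang call in SJL was lost without any 1 of 5 of its 6 mice (SJL1, SJL2, SJL4, SJL44 or SJL48; adjusted p of up to 0.138).

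In SMJ the 6 h changes of both genes were smaller than in the other strains, an order that did not hold after quantile normalization for Rnase4 (-0.56 in SMJ, -0.45 in SJL) or in 1438936_s_at for Ang (-0.62 in SMJ, -0.56 in SJL). Rnase4 had signals of 6463, 6989.5 and 7039 at 0 h, 4977, 6480.4 and 7129 at 3 h, and 5343, 5947 and 6344 at 6 h. Ang had 2899.8, 2734 and 2329 at 0 h, 1802, 2412 and 2602 at 3 h, and 1653, 1965 and 2265 at 6 h. The mouse SMJ95 was the dimmest of the 3 mice at 3 h for both genes. The 3 h and 0 h mice overlapped, whereas 6.81% of genes had all 3 h mice below the 0 h mice in SMJ. At 6 h the signal was 86.1% of the 0 h mean for Rnase4 and 73.9% for Ang. Neither passed limma's test in SMJ alone: -0.22 ± 0.13 for Rnase4 (adjusted p = 0.257) and -0.44 ± 0.18 for Ang (adjusted p = 0.0812), in a comparison that called 12.6% of genes lower. After quantile normalization both passed in SMJ, with -0.56 (limma adjusted p = 0.0028) and -0.52 (adjusted p = 0.0412).

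In DBA both genes passed at 6 h. Rnase4 had signals of 8079.8, 8181 and 8225 at 0 h, 7443, 6636 and 6668 at 3 h, and 5842, 5924 and 6022 at 6 h. The 3 times were fully separated, with little spread among mice at 0 h and 6 h. The share of all genes with the 3 times separated in this way was not computed. Ang had 3087, 3784 and 3350.3 at 0 h, 2959, 2316 and 2199 at 3 h, and 1909.5, 1791 and 2408 at 6 h. For Ang the 3 h and 6 h mice overlapped each other, and both lay below the 0 h mice; of all genes, 11.8% had the 3 h mice below the 0 h mice in DBA and 21% had the 6 h mice below them. The change at 6 h was -0.46 ± 0.13 for Rnase4 (adjusted p = 0.0187), to 72.6% of the 0 h mean, and -0.75 ± 0.18 for Ang (adjusted p = 0.00588), to 59.8%. Limma called 7.75% of genes lower there. The Rnase4 call ended without DBA113, DBA115, DBA166 or DBA168 (adjusted p of up to 0.0593) and with scaling to the 75th percentile (-0.36, adjusted p = 0.0796).

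The response of SJL was set against that of SMJ and DBA to see whether the strain called resistant differed. At 6 h the SJL change minus the mean change of SMJ and DBA was -0.05 for Rnase4 (95% interval -0.38 to 0.28, limma adjusted p = 0.942) and -0.03 for Ang (interval -0.48 to 0.42, adjusted p = 0.978). At 3 h it was 0.12 for Rnase4 (interval -0.21 to 0.45, adjusted p = 0.768) and 0.43 for Ang (interval -0.02 to 0.89, adjusted p = 0.307). No difference was detected, and the intervals do not show that the responses were alike; the sign at 6 h also turned in some settings and without single mice.

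At 3 h against 0 h neither gene passed the test in SJL, SMJ, DBA or their mean. In these single strains the changes lay between -0.24 and -0.08 for Rnase4 and between -0.46 and 0.09 for Ang. The mean change of SJL, SMJ and DBA at 3 h was -0.16 ± 0.08 for Rnase4 (unadjusted p = 0.0439 from limma, adjusted p = 0.225) and -0.20 ± 0.10 for Ang (unadjusted p = 0.0618 from limma, adjusted p = 0.276), while 4.12% of genes were called lower. Between 3 h and 6 h Ang fell by 0.40 ± 0.10 log2 units (limma adjusted p = 0.00931), in a comparison with 8.76% of genes called lower. Rnase4 changed by -0.20 ± 0.08 in that interval and did not pass (adjusted p = 0.0801). The 6 h changes of Ang in 1450717_at were larger than those of Rnase4 in each of the 4 strains, but this order turned in SMJ after quantile normalization (-0.52 for Ang, -0.56 for Rnase4) and in C57 with 1438936_s_at (-1.31) and with the mean of the Ang probe sets (-1.82), against -1.89 for Rnase4. Whether the genes differ in response was not tested, and a MAS5 probe set can compress a change.

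**Figure D2:**
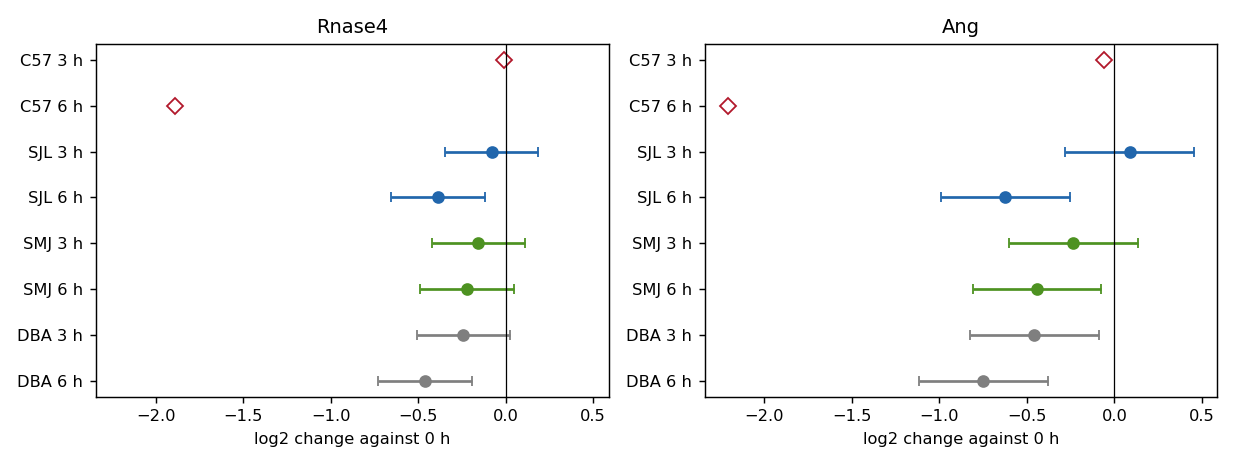
Log2 changes at 3 h and 6 h against 0 h by strain for Rnase4 and Ang (probe set 1450717_at), on a horizontal axis in log2 units. Filled points carry 95% intervals from limma (3 mice per group); open diamonds are C57, shown without an interval because the genes were chosen on that strain. At 6 h C57 stands at -1.89 for Rnase4 and -2.21 for Ang, and the other strains lie between -0.75 and -0.22.

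The change that singled the genes out was in C57 at 6 h. Rnase4 had signals of 4559, 4932 and 5749.7 at 0 h, 4966, 5124 and 4981 at 3 h, and 1273, 1174 and 1701 at 6 h. At 3 h the mice lay within the range of the 0 h mice, and at 6 h none of them exceeded 1701. Ang had 1695, 1925 and 2257 at 0 h, 1881, 1666 and 2075 at 3 h, and 381, 382 and 505 at 6 h. C57237 was the brightest of the 3 mice at 6 h for both genes. The 6 h signal was 27.2% of the 0 h mean for Rnase4 and 21.6% for Ang, against 98.9% and 95.6% at 3 h. In C57, 13.8% of all genes had the 6 h mice below the 0 h mice and 8.73% the 3 h mice. At 6 h the C57 mice were also below the 9 mice of the other strains for both genes, as for 4.49% of genes. For Ang this held in the probe set that represents it. In the other Ang probe sets the C57 mean at 6 h was higher than in the other strains, as given further on.

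On the log2 scale the C57 change at 6 h was -1.89 for Rnase4, and 68 of the 14057 genes (0.484%) had a lower change in that strain. It was -2.21 for Ang, with 47 genes (0.334%) lower. In SJL, SMJ and DBA the same counts were larger, from 20.6% to 36.2% of genes for Rnase4 and from 8.93% to 21.4% for Ang. The C57 change minus the mean change of the other 3 strains was -1.53 for Rnase4 and -1.60 for Ang at 6 h, and 0.15 and 0.14 at 3 h. The ratio of the 3′ to the 5′ actin probe sets, a measure of RNA integrity in which higher is poorer, averaged 1.67 at 6 h and 1.64 at 0 h in C57. At 6 h and 0 h it averaged 1.45 and 1.71 in SJL, 1.35 and 1.57 in SMJ, and 1.44 and 1.77 in DBA. Its part in the result was not tested.

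C57 at 3 h against the other strains at 3 h was not used to choose the genes and could be tested. Rnase4 was lower in C57 (-0.50 ± 0.11, log2 ± SE, limma adjusted p = 0.00208), with means of 5023 in C57 and 7205 over the other 3 strains; 5.76% of genes were called lower. The call held without any 1 of the 12 mice (differences between -0.55 and -0.46). SMJ95, with a signal of 4977, overlapped the C57 mice; 2.93% of genes had the C57 mice below all others at 3 h. The difference for Ang was -0.40 ± 0.15 in the probe set 1450717_at and did not pass (adjusted p = 0.0758), although it passed without SJL42 (-0.46, adjusted p = 0.028) or without SMJ95 (-0.46, adjusted p = 0.0384), and in the other Ang probe sets the direction was the opposite one.

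The 3 probe sets of Ang gave different orders of the strains. The probe set 1438936_s_at had signals of 7008, 7838 and 8923 in C57 at 0 h, against 167, 161 and 158.4 in SJL, 320.6, 237.3 and 192 in SMJ, and 184, 227 and 190.1 in DBA. All 3 C57 mice were far above all 9 others, and the mean was 38.8-fold higher in C57 than in the other strains. The share of probe sets with C57 above all others was not computed. At 3 h it was 48.3-fold higher, with C57 mice from 8346 to 8689 and the others from 100.1 to 269.8, and at 6 h 25-fold higher. The log2 difference at 3 h was 5.64 ± 0.23 (limma adjusted p = 2.19e-15 over 30393 probe sets). Counting this one, 3 of these probe sets had a difference at least as large in either direction. The suffix of this name marks probes that can match more than 1 transcript.

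The probe set 1438937_x_at, whose suffix marks probes open to binding other transcripts, lay between. It had 3829, 4151 and 4654 in C57 at 0 h, against 992, 1001 and 994 in SJL, 1379, 1126 and 938 in SMJ, and 1133, 1566 and 1542 in DBA. C57 was 3.55-fold higher at 0 h, 4.17-fold higher at 3 h (log2 difference 2.09 ± 0.19, limma adjusted p = 1.16e-08) and 1.41-fold higher at 6 h, where the groups overlapped. At 3 h, 174 of 30393 probe sets, counting this one, had a difference at least as large in either direction. In 1450717_at, by contrast, the C57 mean was 0.682 of the other strains at 0 h, 0.748 at 3 h and 0.224 at 6 h. Whether C57 had more or less Ang RNA than the other strains is therefore not settled by these arrays, and probe sequences, which could bear on it, were not used here.

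All 3 probe sets were lower at 6 h than at 0 h in the mean of every strain. In C57 the 6 h signal was 21.6% of the 0 h mean in 1450717_at, 40.6% in 1438936_s_at and 26.4% in 1438937_x_at. In 1438936_s_at the C57 mice had 2876, 2753 and 4027 at 6 h, and in 1438937_x_at 1090.4, 889 and 1350.4. The mean change of SJL, SMJ and DBA at 6 h was -0.69 ± 0.16 in 1438936_s_at (limma adjusted p = 0.00225) and -0.58 ± 0.13 in 1438937_x_at (adjusted p = 0.00142), beside -0.60 in 1450717_at. The signals of 1438936_s_at in these strains were low, between 66.5 and 218 at 6 h and between 158.4 and 320.6 at 0 h. In SMJ its 6 h mice overlapped its 0 h mice.

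**Figure D3:**
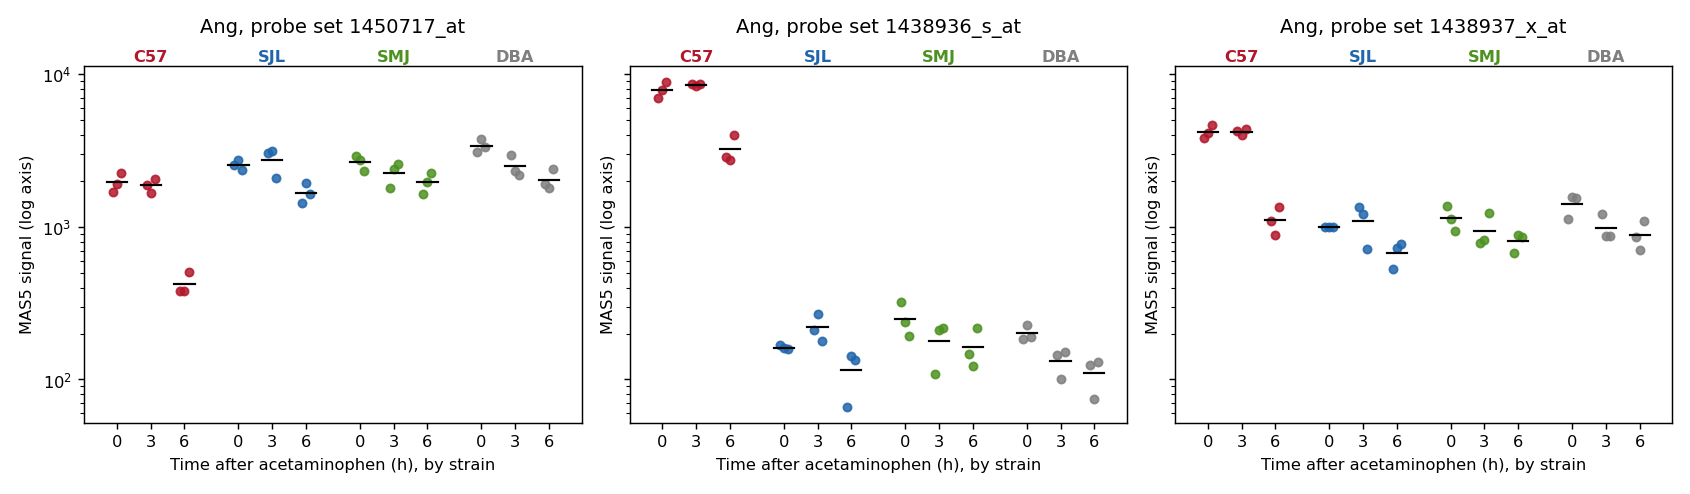
MAS5 signals (log axis) of the 3 Ang probe sets in 36 mice, by strain and hours after acetaminophen; points are mice and bars are means of 3 mice. C57 lies above the other strains in 1438936_s_at at every time but below them in 1450717_at at 0 h and 6 h, while the 6 h means lie under the 0 h means in every strain and probe set.

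Mouse by mouse within the groups, the genes varied together. After the mean of its group was taken from each mouse, Rnase4 and Ang correlated over 36 mice with Pearson r = 0.638 (permutation test within groups, two-sided, p = 0.00169) and Spearman rho = 0.609 (permutation p = 0.00215). The deviations had the same sign in 27 of 36 mice and a standard deviation of 0.15 log2 units for Rnase4 and 0.22 for Ang. Without C57237 and SMJ95, the mice farthest from the median for Rnase4, r was 0.55 (permutation p = 0.0139). In the 27 mice of SJL, SMJ and DBA alone r was 0.575 (permutation p = 0.016). This was the only relation of its kind computed, so no adjustment was made. Both genes of a mouse come from 1 array and its scaling, and r was 0.651 with scaling to the 75th percentile and 0.677 after quantile normalization.

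**Figure D4:**
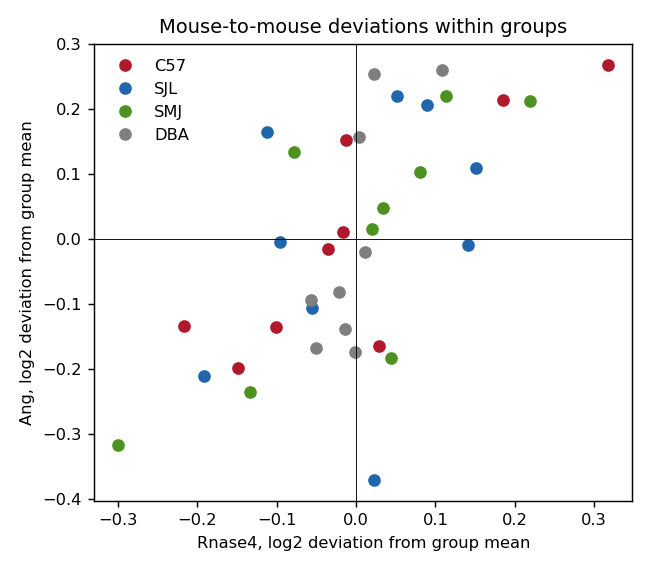
Deviations from the group mean in log2 units for Rnase4 (horizontal) and Ang, probe set 1450717_at (vertical); each of the 36 points is 1 mouse, coloured by strain. The 27 mice with deviations of the same sign lie in the lower left and upper right corners.

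The genes whose profiles over the 12 group means were most like those of Rnase4 and Ang were found by Pearson r among 14056 other genes, as a description. For Rnase4 they were Cyp2c29 (r = 0.963) and Cyp1a2 (r = 0.957), both cytochrome P450 enzymes, then Ang (r = 0.957), the steroid dehydrogenase Akr1c6 (r = 0.957) and the vasopressin receptor Avpr1a (r = 0.956). For Ang, Rnase4 came first (r = 0.957), followed by Akr1c6 (r = 0.957), Avpr1a (r = 0.957), Plcxd2 (r = 0.951) and Cdc37l1 (r = 0.946). The 12 means share the C57 6 h group, in which all of these were low. Without it, r between Rnase4 and Ang was 0.704, and each stood lower in the other's order. Ang was at place 489 for Rnase4 and Rnase4 at place 316 for Ang. Both lists of the most similar genes were then made up of others, headed by Sema4a (r = 0.94) for Rnase4 and Plcb3 (r = 0.959) for Ang. The lists given above thus rest on the C57 6 h group.

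Among the genes most similar over all group means, the sizes of the 6 h changes differed. In C57 at 6 h the log2 change was -3.44 for Akr1c6, -3.25 for Cyp1a2, -2.18 for Plcxd2, -1.89 for Avpr1a, -1.60 for Cyp2c29 and -0.83 for Cdc37l1. In SJL, SMJ and DBA the 6 h changes lay between -1.20 and -0.64 for Akr1c6, -1.05 and -0.59 for Avpr1a, -1.001 and -0.26 for Cyp1a2, -0.55 and -0.16 for Plcxd2, -0.54 and -0.10 for Cyp2c29, and -0.33 and -0.07 for Cdc37l1. These genes were chosen for their likeness over the same group means, so their changes are a description with no test.

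**Figure D5:**
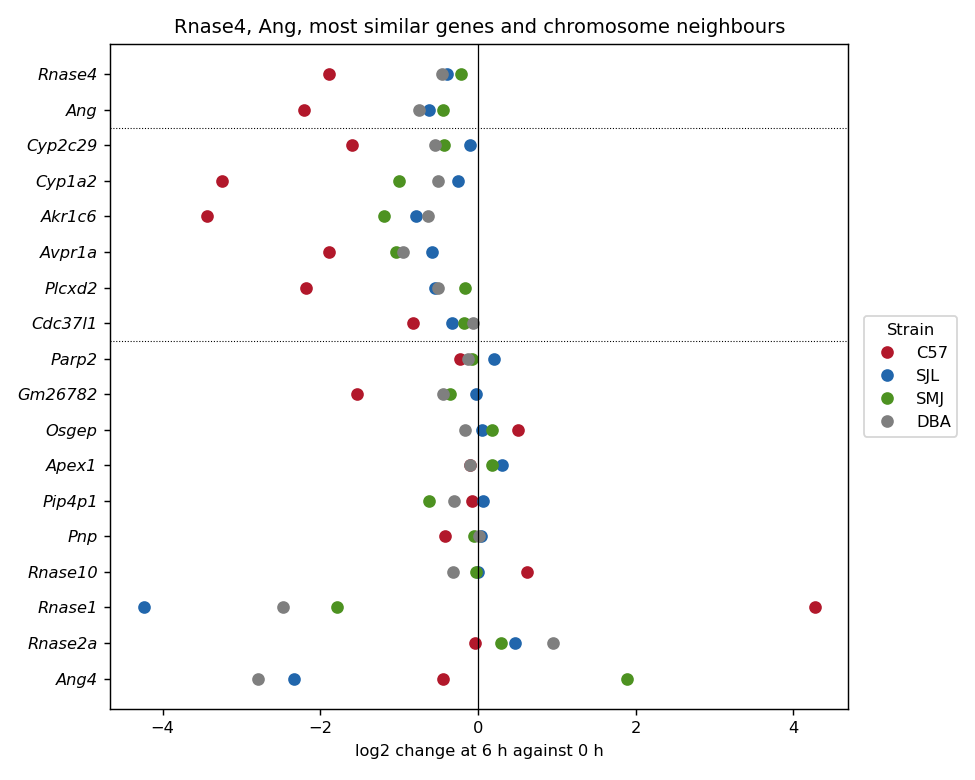
Log2 changes at 6 h against 0 h (horizontal axis) in each strain, each point 1 strain, for Rnase4 and Ang (top), the 6 genes with the most similar profiles (middle) and the 10 tested chromosome neighbours (bottom). C57 is the leftmost point for Rnase4, Ang and the 6 similar genes and for 5 of the 10 neighbours, and Rnase1 and Ang4 spread widely.

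Of the other genes of the RNase A superfamily and its inhibitor, 10 of the 26 listed had a probe set of their own and 6 could be tested. In the mean of SJL, SMJ and DBA at 6 h, 0 of the 6 passed limma's test, 0 had an unadjusted p under 0.05, and the median change was -0.15 beside -0.08 for all genes, of which 11.6% were called higher and 19.2% lower. Without the mouse SMJ103, Rnase1 (-3.78, adjusted p = 0.0431) and Ang4 (-1.63, adjusted p = 0.018) passed. Rnh1, the inhibitor that binds both enzymes, had signals between 880.5 and 1128 in C57 at 6 h and changed by 0.06 ± 0.06 in the other strains (adjusted p = 0.451). Rnase1, the pancreatic-type ribonuclease, varied from 71.9 to 11126 among the 3 C57 mice at 6 h and from 2.05 to 7601 among the 3 SMJ mice at 6 h, and its mean change in SJL, SMJ and DBA of -2.83 ± 1.47 did not pass (adjusted p = 0.154). Ang4, an antimicrobial relative of Ang known from the gut, changed by -1.08 ± 0.62 (adjusted p = 0.201). Rnase2a, Ear3 and Rnase10 were dim, with group means of at most 50.9, and did not pass.

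Of 8 genes listed as receptors or partners of angiogenin, 6 were tested, and at 6 h in the mean of SJL, SMJ and DBA 2 rose and 1 fell, beside 11.6% of all genes called higher and 19.2% lower, with a median change of 0.46 against -0.08 for all genes and -0.20 for the same genes in C57. Sdc4, a cell-surface proteoglycan, rose by 0.52 ± 0.08 (limma adjusted p = 6.99e-06), and Fst, the activin antagonist follistatin, by 1.04 ± 0.22 (adjusted p = 0.000735). Fst changed by 2.06 in SMJ and 1.48 in DBA but by -0.43 in SJL. Plxnb2, the plexin that angiogenin binds, fell by 0.51 ± 0.08 (adjusted p = 1.36e-05), and its signals averaged 714 at 6 h and 908 at 0 h in SJL, 566 and 869 in SMJ, and 497 and 740.1 in DBA. Egfr, the growth factor receptor, changed by 0.25 ± 0.10 (adjusted p = 0.0536, 0.0195 with 75th percentile scaling, and under the threshold without DBA114 or DBA166, down to 0.0125).

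Genes of the stress response in which angiogenin cuts transfer RNA were also counted. Of 13 tested members, 6 rose and 2 fell in the mean of SJL, SMJ and DBA at 6 h, with a median change of 0.11, where 11.6% of all genes were called higher and 19.2% lower. The rest did not pass (limma adjusted p between 0.285 and 0.725). They were Elac2 (0.11), Ssb (0.10), G3bp2 (0.04), Nsun2 (-0.045) and Trdmt1 (-0.18), named after their values were seen. Whether transfer RNA was cut was not measured. Those that rose included Ddit3, which encodes the stress factor CHOP (3.95 ± 0.34, limma adjusted p = 1.24e-09), Atf4 (0.85 ± 0.11, adjusted p = 2.27e-06), the kinase Eif2ak3 (0.48 ± 0.09, adjusted p = 0.000305) and the stress granule protein G3bp1 (0.37 ± 0.07, adjusted p = 0.000351). The 2 that fell, named after their values were seen, were the kinases Eif2ak1 (-0.34 ± 0.09, adjusted p = 0.00738) and Eif2ak2 (-0.42 ± 0.15, adjusted p = 0.0304); 1 gene fell with 75th percentile scaling, after quantile normalization and with the mean of a gene's probe sets, and 1 or 2 fell when any 1 mouse was left out. Of 19 other ribonucleases, 5 rose and 2 fell, with a median of -0.07 and the same shares over all genes, 11.6% higher and 19.2% lower. With the mean of a gene's probe sets 2 rose and 3 fell. Ern1, the endoplasmic reticulum sensor with an RNase domain, rose by 0.66 ± 0.08 (adjusted p = 5.53e-07), and Eri1, a histone mRNA exonuclease, fell by 0.35 ± 0.10 (adjusted p = 0.00958). Exosc10 of the exosome and Zc3h12a, which degrades cytokine mRNAs, rose by 0.29 ± 0.07 (adjusted p = 0.0014) and 0.66 ± 0.19 (adjusted p = 0.0081), and both lost the call with the mean of a gene's probe sets.

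Of the liver transcription factors and the insulator protein CTCF, 12 of 14 were tested, and 1 rose and 5 fell at 6 h in the mean of SJL, SMJ and DBA, with a median of -0.30, beside 11.6% of all genes called higher and 19.2% lower. The bile acid receptor Nr1h4 fell by 0.75 ± 0.09 (limma adjusted p = 7.67e-07), Nr2f2 by 0.68 ± 0.12 (adjusted p = 5.04e-05), Prox1 by 0.61 ± 0.10 (adjusted p = 6e-05), Nr5a2 by 0.50 ± 0.12 (adjusted p = 0.00176) and Ctcf by 0.33 ± 0.08 (adjusted p = 0.00215); with the mean of a gene's probe sets Nr5a2 lost the call (adjusted p = 0.107). Cebpb, an acute-phase factor, rose by 1.07 ± 0.11 (adjusted p = 2.99e-08). Hnf4a changed by 0.17 ± 0.08 (adjusted p = 0.11, and 0.022 with 75th percentile scaling) and Cebpa by -0.004 ± 0.10 (adjusted p = 0.985). At 3 h, 2 of the 12 were called higher and 4 lower, where 3.49% of all genes were called higher and 4.12% lower. The 4 called lower were Foxa1 (-0.61, limma adjusted p = 0.0203), Prox1 (-0.48, adjusted p = 0.00416), Nr1h4 (-0.41, adjusted p = 0.00674) and Nr2f2 (-0.40, adjusted p = 0.0308). The 2 called higher were Cebpb (0.80, limma adjusted p = 1.81e-05) and Hnf4a (0.27, adjusted p = 0.0357).

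Of the 8 neighbours on each side of the locus on chromosome 14, in the order of RefSeq (GRCm38.p6), 10 could be tested. In the mean of SJL, SMJ and DBA at 6 h 1 of the 10 fell, where 19.2% of all genes were called lower. It was Pip4p1, a lipid phosphatase gene, which fell by 0.29 ± 0.09 (limma adjusted p = 0.0154, and 0.0517 with 75th percentile scaling). The DNA repair gene Apex1 changed by 0.13 ± 0.09 (adjusted p = 0.313), the nucleoside phosphorylase Pnp by -0.003 ± 0.06 (adjusted p = 0.98) and the poly(ADP-ribose) polymerase Parp2 by -0.004 ± 0.11 (adjusted p = 0.987). In C57 at 6 h the changes of 5 of them were 0.51 for Osgep, -0.07 for Pip4p1, -0.10 for Apex1, -0.22 for Parp2 and -0.42 for Pnp. The unnamed gene Gm26782 had -1.53 in C57 and -0.28 ± 0.35 in the other strains (limma adjusted p = 0.607). It was dim, with C57 means of 38.3 at 0 h and 14.1 at 6 h. For the ribonuclease genes among the neighbours, the C57 change was 4.275 for Rnase1, whose mice varied widely, and 0.63 for Rnase10. It was -0.03 for Rnase2a and -0.44 for Ang4.

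Markers of hepatocyte zones and of other cells moved at the same time. As a check of the liver label, 19 secreted hepatocyte proteins summed to signals between 195600 and 397400 in every mouse. At 6 h, 18 of these 19 rose and 0 fell in the mean of SJL, SMJ and DBA, with a median change of 0.37 there and 0.37 in C57, where 11.6% of all genes were called higher and 19.2% lower. After quantile normalization 1 of the 19 was called higher and 0 lower, and the fibrinogen genes Fga and Fgb and the fetuin gene Ahsg were among those that lost the call. Of 12 pericentral hepatocyte markers, 0 rose and 10 fell, beside the same 11.6% and 19.2% of all genes, with a median of -1.25 there and -2.52 in C57. Their summed signal at 6 h lay between 6986 and 14240 in C57, 27360 and 32470 in SJL, 25210 and 30440 in SMJ, and 26630 and 29700 in DBA, and at 0 h between 27880 and 32670 in C57, 36070 and 43090 in SJL, 27850 and 29930 in SMJ, and 35390 and 40930 in DBA. The part of these markers in the result was not tested.

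Of all genes tested, 11.6% were called higher and 19.2% lower in the comparison that the following counts come from. Of 8 periportal markers 4 rose and 2 fell (median 0.12), although after quantile normalization 0 rose and 3 fell, Cyp2f2 and Arg1 lost the call and Cps1 turned sign. Of 7 neutrophil markers, Elane (-0.81, limma adjusted p = 0.0578), Mpo (-0.65, adjusted p = 0.121) and Ltf (-0.32, adjusted p = 0.707) changed downward without passing. When 1 mouse was left out, up to 1 of the 7 was called lower. The other 4 rose (median over all 7 of 1.30, and 1.07 in C57). Among these, Csf3r (limma adjusted p = 0.0427) lost the call with no filter (adjusted p = 0.056) and without any 1 of 11 of the 18 mice (SJL2, SJL44, SJL48, SMJ57, SMJ58, SMJ101, SMJ103, DBA113, DBA166, DBA168 or DBA169; adjusted p of up to 0.112). The summed neutrophil signal at 6 h lay between 890 and 1128 in C57, 522 and 2485 in SJL, 1194 and 2171 in SMJ, and 415 and 964 in DBA, against 165 to 807 over the 12 mice at 0 h. Of 12 macrophage markers 3 rose, among them C1qa, whose call was lost without any 1 of 6 mice (SJL1, SJL48, SMJ58, SMJ102, DBA114 or DBA166; limma adjusted p of up to 0.0716). Of 9 endothelial markers 4 rose and 1 fell, of 10 stellate cell markers 4 rose and 1 fell (Acta2, Dcn and Pdgfrb not with the mean of a gene's probe sets), of 4 bile duct markers 1 rose, and of 5 lymphocyte markers 0 passed. Across genes, arrays within a group correlated between 0.916 and 0.964 (36 pairs).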

How the data were processed

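Liver RNA of 36 mice had been measured on 1-colour Affymetrix arrays. The deposited values are intensity on a linear scale, made with MAS5 per the submitters' processing notes, whose version is not given in the sources used here. The algorithm sets perfect-match against mismatch probes and can compress changes. The trimmed mean of each array (2% left out at each end) was 150 as deposited, so no rescaling was made. The labels give no batch.

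Log2 was taken after adding 2.77, the 10th percentile of all values. A gene was read from its single-symbol probe set with the highest mean log2 signal, passing over names ending in _x_at unless a gene had no other; 34945 probe sets carried 1 symbol, 932 several and 9160 none, and 64 controls were left out. Of 18193 genes, 14057 with at least 3 arrays above the overall median of 30.8 were tested. The 12 group means were fitted over 36 arrays with limma 3.58.1 in R 4.3.3 (24 residual degrees of freedom), two-sided, with Benjamini-Hochberg adjustment over all genes tested and a threshold of 0.05; Rnase4 and Ang both passed the filter. Single Ang probe sets were fitted over 30393 probe sets. Fold changes understate those of dim genes. Correlations within groups used 100000 permutations. The steps were tested on simulated data. The number of arrays limits the precision, and limma's p-values weigh a difference of means against the spread between mice within groups.

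The 2 genes, the gene lists and the tests were chosen with earlier results of these data known. Named were both genes with all their probe sets, the 4 or fewer genes per list with the lowest p at 6 h, all tested RNase A genes and liver factors, the 5 genes most like each, and 8 neighbours on each side. Alternatives were other offsets, 75th percentile scaling, quantile normalization, no filter, the mean of a gene's probe sets, only the 27 arrays without C57, and leaving out each mouse. Promoter windows and gene order came from RefSeq tables (GRCm38.p6). Some genes and motifs are not reported here.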

Additional observations from a re-analysis of the deposited data

How the results depend on the processing

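The falls of Rnase4 and Ang at 6 h in the mean of SJL, SMJ and DBA, and the lower Rnase4 in C57 at 3 h, kept their direction and call in every setting run and without any 1 mouse. The C57 change at 6 h, which was not tested, lay between -1.98 and -1.88 for Rnase4 and between -2.22 and -1.82 for Ang over the settings. Most other calls lay near the threshold, and the causes of the moves below were not tested. After quantile normalization Rnase4 passed in the mean change at 3 h (-0.24, limma adjusted p = 0.0461), between 3 h and 6 h (-0.30), in SJL at 6 h (-0.45) and in SMJ at 6 h (-0.56), Ang passed in SMJ at 6 h (-0.52) and in C57 at 3 h (-0.45), SJL minus SMJ at 0 h was lost for Rnase4 (0.17), the SJL change at 3 h turned sign (0.002), and so did SJL minus SMJ and DBA at 6 h for Rnase4 (0.14) and Ang (0.057). With 75th percentile scaling Rnase4 in DBA at 6 h was lost (-0.36). Without a filter, and with the mean of a gene's probe sets, SJL minus SMJ at 0 h was lost for Rnase4 (0.39 in both, adjusted p = 0.0748 and 0.0622). Ang in SJL at 6 h was lost with the mean of its probe sets (-0.58), with the 27 arrays (-0.62, adjusted p = 0.0501), with 1438936_s_at (-0.56) and with 1438937_x_at (-0.57). With the probe sets 1438936_s_at and 1438937_x_at, chosen as alternatives after seeing the data, Ang was lost between 3 h and 6 h (-0.46 and -0.34), and with the second also in DBA at 6 h (-0.68). SJL minus SMJ and DBA at 6 h turned sign for Ang in both (0.193 and 0.021) and in the mean of its probe sets (0.062), SMJ minus DBA at 0 h in the first (0.29), and C57 at 3 h was 5.64, 2.09 and, in the mean, 2.44.

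Counts of genes called lower moved by over 1.5 times with the mean of probe sets (730 against 1232 between 3 h and 6 h, and 288 against 467 in SJL at 6 h) and with 75th percentile scaling (669 against 1089 in DBA at 6 h). Without 1 mouse the count was between 218 and 361 in SJL at 6 h (moved by over 1.5 times without SJL1, SJL2, SJL4, SJL45 or SJL48), between 625 and 942 in DBA at 6 h (without DBA113, DBA115 or DBA168), and between 477 and 956, against 810, in C57 at 3 h (without C57226, C57230 or C57231).

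Leaving out 1 mouse gave ranges that spanned 0 for Ang in SJL at 3 h (-0.015 to 0.273), SJL minus SMJ and DBA at 6 h (-0.118 to 0.049 for Rnase4, -0.137 to 0.078 for Ang) and Ang in SJL minus SMJ at 0 h (-0.145 to 0.014). It ended or made calls of Ang in SJL at 6 h (-0.73 to -0.52), Rnase4 in DBA at 6 h (-0.47 to -0.45), Rnase4 in SJL minus SMJ at 0 h (0.32 to 0.44), Rnase4 between 3 h and 6 h (-0.25 to -0.16, called without SMJ95) and Ang in C57 at 3 h (-0.48 to -0.32). Of the named genes, Cebpa (0.061), Pnp (0.062) and Parp2 (0.06) turned sign at 6 h with 75th percentile scaling, Cps1 (-0.061) and Parp2 (0.074) after quantile normalization, and Dcn (-0.047) and Epcam (0.051) with the mean of probe sets. Leaving out 1 mouse turned Ear3 (-0.405 to 0.124), Rnase10 (-0.299 to 0.011), Cebpa (-0.049 to 0.051), Epcam (-0.592 to 0.03), Krt19 (-0.115 to 0.261), Cd8a (-0.228 to 0.087), Pnp (-0.028 to 0.027), Osgep (-0.032 to 0.097) and Parp2 (-0.09 to 0.056). No paired analysis was possible because each liver comes from 1 time and the mouse numbers are not shared between groups. Over the 36 arrays in place of group means, Rnase4 and Ang were each other's most similar gene (r = 0.942), and over group means after quantile normalization Ang was at place 3 and Rnase4 at place 2 (r = 0.966). Without 1 mouse, Cps1 lost its call (SJL48, 0.222), and calls were made for Egfr (DBA114 or DBA166, up to 0.313), Foxa1 (SJL45 or SMJ56, down to -0.484), Lyz2 (SMJ102, 0.386), Krt7 (DBA113, 0.919) and Ms4a1 (SMJ103 or DBA166, down to -1.04). Dim signals limit Rnase2a, Ear3, Rnase10, Ang4 and Gm26782.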
